A study of Mus musculus with 23 samples.

Results

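Fibroblasts that received messenger RNA of cardiomyocytes were compared with fibroblasts that received messenger RNA of fibroblasts, so that, according to the labels, the transfection was matched and the source of the RNA differed. The comparison used 8 of the 23 single cells of the series, the 5 cells labelled fibroTIPeR and the 3 labelled fibroControl. Every probe set with 1 gene symbol was kept, 34945 of the 45101 on the array, and these reported on 18193 genes. Each sample was 1 mouse cell, and its amplified RNA was measured on 1 Affymetrix expression array. For fibroTIPeR cells, fibroblasts were lipid-transfected with the poly-A RNA of cardiomyocytes, and for fibroControl cells with that of fibroblasts. The untransfected references were 3 fibroblasts and 4 cardiomyocytes. All groups are described as cultured in DMEM with 10% FBS. The labels give no strain, age or tissue of the cells, no dose of RNA and no time between transfection and collection. They also name no culture or animal, so p-values measure only how far these cells differ, part of which may be technical. Precision is limited by how few arrays there are.

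Transfer of a whole transcriptome is meant to bring a donor cell's set of messenger RNAs, including those for transcription factors, into a host cell of another type. A transferred message can be seen on the array for as long as it lasts, and messages made by the host in response are seen beside it, so the array does not separate the 2 sources. Cardiomyocytes are marked by messages for the contractile sarcomere and for the proteins that move calcium in and out of the sarcoplasmic reticulum, and fibroblasts by vimentin and by the collagens of the extracellular matrix. Levels are given on the log2 scale, on which 1 unit is a factor of 2, after quantile normalization. The median gene lay at 5.71 and the 90th percentile at 10.94. No detection calls were used, so a low level is not shown to be absence, and levels of different genes are not set against each other.

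The cells differed in their amplified RNA in a way that the labels do not explain. The 18S ribosomal RNA, read by 3 control probe sets, averaged 12.4, 11.03 and 13.5 in fibroTIPeR 1 to 3 and 11.2 to 12.08 in the fibroControl cells, but 7.80 and 7.88 in fibroTIPeR 4 and 5, within the range of the untransfected cells (6.94 to 8.24). The B2 repeat was at 13.2, 11.8 and 13.6 in fibroTIPeR 1 to 3, at 8.31 and 8.52 in fibroTIPeR 4 and 5, and at 11.02 to 12.5 in fibroControl cells. Of the untransfected cells, fibroblast 3 had it at 11.02 and the others at 6.43 to 7.58. Whether fibroTIPeR 4 and 5 took up RNA cannot be told from the arrays, and this doubt touches every value below that is taken over all 5 fibroTIPeR cells. The group means of 18S did not differ beyond the spread (exact permutation test, two-sided, p = 0.571), nor did the 3' minus 5' difference of Gapdh (p = 0.143), where 8 cells allow no p below 0.0357. Over all genes, fibroTIPeR cells correlated with one another at 0.660 to 0.872 and with fibroControl cells at 0.729 to 0.877. The 8 fibroblast markers averaged 8.72 to 9.39 in fibroTIPeR and 8.52 to 10.9 in fibroControl cells, against 5.64 to 8.31 in cardiomyocytes. The 8 cardiomyocyte markers averaged 5.27 to 6.12, 4.79 to 5.10 and 8.79 to 10.5 in the same order, and 5.48 to 6.68 in untransfected fibroblasts. By these averages, both transfected groups lay on the fibroblast side of the cardiomyocytes. Single genes were less clear. Of the 8 fibroblast markers, 6 had a mean above the median gene in fibroTIPeR cells. All 8 did in fibroControl cells and in untransfected fibroblasts, and 5 in cardiomyocytes.

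A single gene passed the test between the groups, and it was neither a cardiac nor a fibroblast marker. Corneodesmosin (Cdsn), an adhesion protein that holds the cells of the cornified skin layer together, was lower in fibroTIPeR than in fibroControl cells. Its level was 3.22, 3.83, 4.88, 4.45 and 2.76 in fibroTIPeR 1 to 5 and 7.12, 7.91 and 8.45 in fibroControl 1 to 3. All 5 fibroTIPeR cells lay below all 3 fibroControl cells, with a gap of over 2 units. The means were 3.83 ± 0.87 (SD, n = 5) and 7.83 ± 0.67 (n = 3), a difference of -4.00 (SE 0.61, 95% interval -5.25 to -2.75, limma adjusted p = 0.0101). Untransfected fibroblasts held Cdsn at 5.08, 5.20 and 3.95 and cardiomyocytes at a mean of 4.76, so it was the fibroControl cells that stood apart. Their difference from untransfected fibroblasts was 3.08 (adjusted p = 0.0233), whereas that of fibroTIPeR cells was -0.91 (adjusted p = 0.659); these comparisons share cells with the one above. Cdsn was measured by 1 probe set, its level was below the median gene in every fibroTIPeR cell, and without fibroControl 3 the difference was -3.68 with an adjusted p of 0.0740. It also did not pass in a fit of the 8 cells alone (adjusted p = 0.325) or with fibroTIPeR 1 to 3 alone (adjusted p = 0.0581).

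Cdsn passed out of 18193 genes, so 0.00550% of genes were called, and no gene was called higher. An unadjusted p under 0.05 was reached by 507 genes higher (2.79%) and 697 lower (3.83%). In simulated data, 78% of 100 genes changed by 4 units were called and 22% of 100 changed by 2 units, along with 4 unchanged genes. These data had the average spread within the 6 groups of the series, not that of the compared groups alone. Each gene was drawn by itself, without differences between cells that many genes share. Both sets of 100 genes were changed in the same simulated data. With many genes called, the adjusted threshold is easier to reach than here, where 1 gene was called. The shares may therefore be too high for a change that stands nearly alone. At the simulated spread, changes of the smaller size would mostly be missed.

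RefSeq gives 2 starts for Cdsn on the plus strand of chromosome 17 (GRCm38.p6), and the 250 bases before each are shown because Cdsn is the gene that the comparison called. Capitals mark the E-box letters CANNTG, searched on both strands, which basic helix-loop-helix transcription factors can bind.

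Cdsn, chr17:35542851-35543100: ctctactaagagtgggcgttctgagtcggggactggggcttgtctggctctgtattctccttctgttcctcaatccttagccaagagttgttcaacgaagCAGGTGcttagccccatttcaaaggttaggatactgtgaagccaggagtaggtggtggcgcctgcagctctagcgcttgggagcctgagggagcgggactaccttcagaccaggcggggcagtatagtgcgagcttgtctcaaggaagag
Cdsn, chr17:35551878-35552127: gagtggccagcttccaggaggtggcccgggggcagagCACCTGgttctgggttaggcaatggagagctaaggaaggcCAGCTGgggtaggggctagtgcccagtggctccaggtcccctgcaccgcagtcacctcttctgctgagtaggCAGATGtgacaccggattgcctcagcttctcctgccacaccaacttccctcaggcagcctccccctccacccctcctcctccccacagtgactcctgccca

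The first window held 1 such match and the second 3, and 66.2% of 32851 RefSeq promoters of this length held at least 1. On either strand, the TATA box TATAAA was in neither window and in 12.4% of promoters. The CCAAT box was likewise absent from both windows and present in 33.8% of promoters. So was the GC box GGGCGG, which 32.7% of promoters held. The AP-1 letters TGANTCA, held by 6.75%, were in neither window. The array data do not say which start was in use.

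The genes next in order included a collagen and secreted signals that were lower in fibroTIPeR cells, and none passed. In all, 305 genes (1.68%) lay lower in every fibroTIPeR cell than in every fibroControl cell and 240 (1.32%) lay higher. Among those lower, the 12 with the smallest p differed by 2.54 to 5.48 units, with adjusted p from 0.0101 for Cdsn to 0.139. R-spondin 2 (Rspo2), a secreted protein that strengthens Wnt signalling, had the widest gap. It was at 7.09, 9.86, 6.54, 7.28 and 7.69 in fibroTIPeR and at 13.08, 12.85 and 13.59 in fibroControl cells. This is a difference of -5.48 (SE 1.08, adjusted p = 0.0840). FibroTIPeR 2 was the highest of its group and still about 3 units under the lowest control. The untransfected fibroblasts spanned both groups, with 6.69, 10.51 and 12.96.

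Insulin-like growth factor binding protein 4 (Igfbp4), which holds insulin-like growth factors in the extracellular fluid, was at 7.05, 5.70, 7.26, 6.51 and 5.99 against 8.77, 11.58 and 12.71 (difference -4.52, SE 0.94, adjusted p = 0.0879). The fibroTIPeR cells lay close together at the level of untransfected fibroblasts (6.78 ± 0.78, n = 3), and the spread was among the controls. Of its other 5 probe sets, 4 had the same sign. The ephrin receptor Epha3, which guides cell contact, was at 4.54 ± 0.41 (SD, n = 5) against 7.75 ± 0.62 (n = 3), but 2 of its 3 other probe sets had the opposite sign. The DNA repair ubiquitin ligase Fancl differed by -2.98, while its other probe set differed by 0.52. The glycolytic enzyme Eno2, a neuronal form of enolase, differed by -2.73. The small proline-rich protein Sprr2h, like Cdsn a gene of cornified skin, was at 7.05, 9.78, 7.44, 7.85 and 7.34 against 11.05, 11.13 and 10.90 (difference -3.13, SE 0.59, adjusted p = 0.0840). Its probe set can take up RNA of other genes of its family, so this value is uncertain as to the gene. The rest of these 12 were Col6a3 and Medag, described with the matrix and donor genes, the zinc finger gene Zfp790 (-3.24), the glycosyltransferase B3galnt1 (-4.85) and the protease inhibitor Spink2 (-2.54).

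The 12 genes higher without overlap and with the smallest p differed by 0.85 to 4.88 units, with adjusted p from 0.0840 to 0.293. Prkar2a, a regulatory subunit of protein kinase A, was at 12.06, 10.29, 12.47, 10.09 and 10.62 in fibroTIPeR and at 8.77, 6.68 and 7.55 in fibroControl cells. The highest control was more than 1 unit under the lowest fibroTIPeR cell, and the difference was 3.44 (SE 0.68, adjusted p = 0.0840). With the 18S level as a covariate it was 3.85 and passed (adjusted p = 0.0193), but Prkar2a passed in only 2 of 24 alternatives. Its other 3 probe sets differed by 0.15 to 0.81, in the same direction. Stim2, a calcium sensor of the endoplasmic reticulum, was at 12.16, 10.80, 9.55, 11.71 and 12.46 against 8.22, 9.06 and 8.58 (difference 2.72, SE 0.56, adjusted p = 0.0879). Untransfected fibroblasts had it at 11.79 to 12.06, above every fibroControl cell. FibroTIPeR 3 also lay under them, nearer to fibroControl 2. The ubiquitin ligase Huwe1 differed by 3.91 (adjusted p = 0.139), but its 4 other probe sets all had the opposite sign, from -0.64 to -0.10. The mitochondrial membrane protein Tmem65 was at 10.00 ± 0.44 against 6.51 ± 1.97. The tubulin Tubb2b was at 12.26, 6.69, 10.14, 7.63 and 9.37 against 4.28, 4.27 and 4.45, and the noncoding RNA Ftx, made beside Xist, at 10.01, 4.12, 8.36, 8.81 and 5.88 against 2.91, 2.76 and 3.35. Both had even, low controls and wide fibroTIPeR values. The rest were Iapp, Gprc5b, Kifbp, Naa50, 4930583I09Rik and Samd4.

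**Figure D1:**
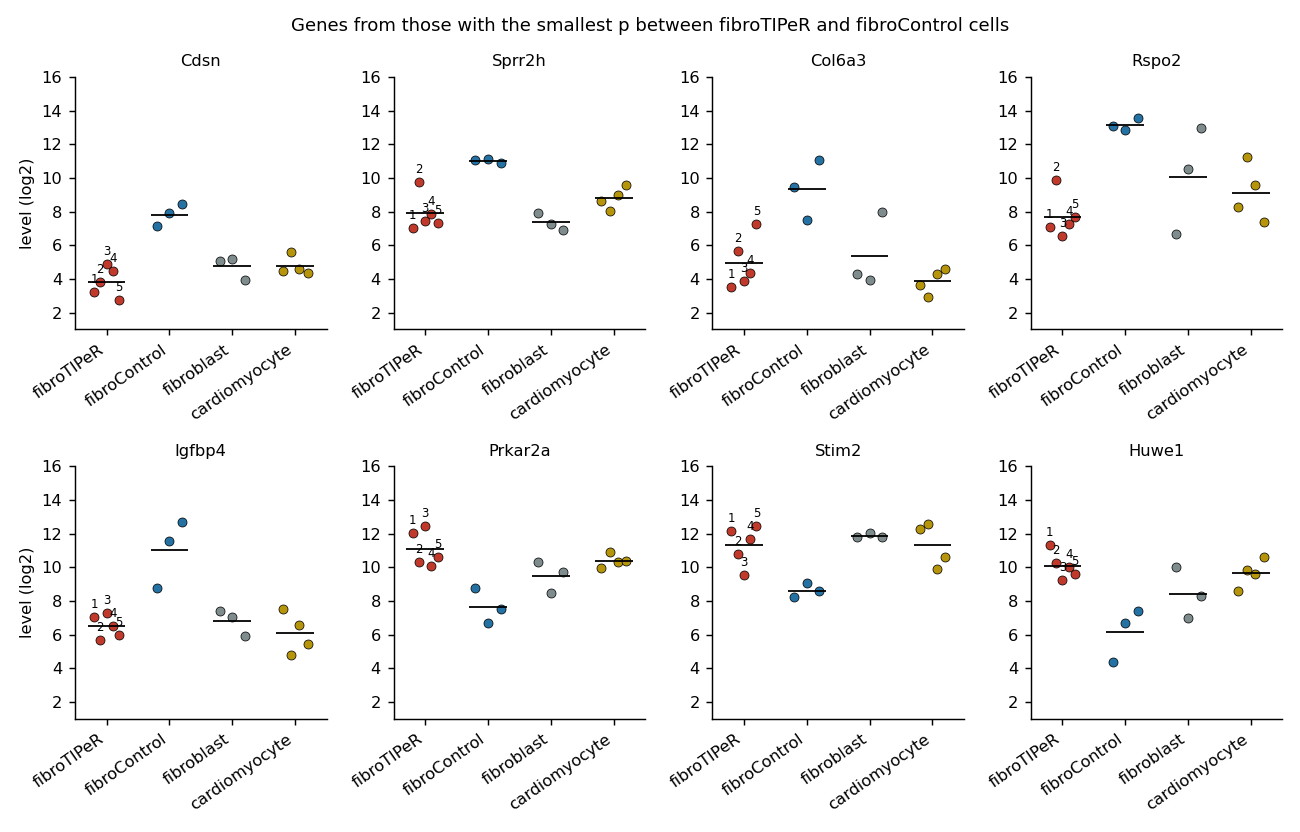
Levels (log2) of 8 of the 24 leading genes, with 1 point per cell, the fibroTIPeR cells numbered, and the group mean as a line. Cdsn lies at 2.76 to 4.88 in fibroTIPeR and 7.12 to 8.45 in fibroControl cells, and the untransfected fibroblasts (3.95 to 5.20) sit near the fibroTIPeR cells.

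For 9 of the 12 lower and 9 of the 12 higher genes, the mean of untransfected fibroblasts lay inside the range of the fibroTIPeR cells, and for 1 and 0 of them inside that of the fibroControl cells. In the comparison of fibroControl with untransfected fibroblasts, in which 1.56% of all genes passed, 7 of the 12 and 4 of the 12 passed, and in that of fibroTIPeR with untransfected fibroblasts (0.0550% of genes) none did. Because the genes were chosen by the fibroControl values, these counts describe them and test nothing.

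No gene of the cardiac lists passed the test. Averaged per cell, the 8 cardiomyocyte markers lay at 5.27 to 6.12 in fibroTIPeR and 4.79 to 5.10 in fibroControl cells, without overlap. Single markers differed in both directions, with Myl2 at -0.10 and Ryr2 at -0.42. In untransfected fibroblasts the average was 5.48 to 6.68, at the level of fibroTIPeR cells or above. Of the 28 measured genes of the cardiac sarcomere, none passed, none lay outside the controls in all 5 fibroTIPeR cells, 15 were higher and 13 lower, and the median difference was 0.04, beside -0.02 over all genes. This median was 0.46 without fibroControl 1, 0.22 without fibroControl 2, 0.25 with the 18S level as a covariate and 0.23 with fibroTIPeR 1 to 3 alone. It fell to 0.005 without fibroControl 3 and to -0.08 with fibroTIPeR 4 and 5 alone. Cardiac troponin I (Tnni3), the subunit that makes contraction depend on calcium, was at 5.92, 6.58, 3.84, 4.65 and 4.26 in fibroTIPeR and 6.41, 4.27 and 2.12 in fibroControl cells. These ranges overlapped almost fully, and the difference of 0.78 had an interval of -0.83 to 2.40. In cardiomyocytes Tnni3 averaged 11.96 ± 0.98 (SD, n = 4), 7.20 above untransfected fibroblasts, and no fibroTIPeR cell was near that level. The ventricular myosin light chain Myl2 was at 2.43 to 4.03 against 2.76 to 3.95, with 9.90 in cardiomyocytes (difference -0.10, interval -1.44 to 1.23). For Myl2 and Tnni3 the upper bounds, 1.23 and 2.40, were under the donor differences of 5.67 and 7.20. Alpha-myosin heavy chain (Myh6) had narrow ranges, 4.52 to 5.38 against 3.82 to 4.63, and cardiac actin (Actc1) differed by 1.0 (interval -0.66 to 2.65), with fibroTIPeR 2 highest at 8.47. Myosin-binding protein C (Mybpc3), which tunes the thick filament, was at 8.82, 7.46, 9.83, 6.18 and 5.66 against 5.47, 6.08 and 7.99. FibroTIPeR 1 and 3 lay above all controls and fibroTIPeR 4 and 5 among them, and the cardiomyocyte mean was 11.53.

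Calcium cycling held the cardiac gene with the clearest separation. Atp2a2 encodes the pump SERCA2, which returns calcium to the sarcoplasmic reticulum after each beat and also serves the endoplasmic reticulum of other cells. It was at 10.85, 8.62, 10.59, 7.09 and 6.41 in fibroTIPeR and 4.17, 4.12 and 5.33 in fibroControl cells. All 5 fibroTIPeR cells were above the controls, fibroTIPeR 1 and 3 most, and these were also the cells with the highest 18S level. The difference of 4.17 (SE 1.11, interval 1.90 to 6.44) did not pass (adjusted p = 0.315). With the 18S level as a covariate it was 5.11 and passed (adjusted p = 0.0323), but Atp2a2 passed in only 1 of 24 alternatives. Untransfected fibroblasts had 5.40, 5.11 and 10.60, so 1 cell without cardiomyocyte RNA reached the level of fibroTIPeR 1 and 3. The other 5 probe sets of Atp2a2 differed by -0.51 to 1.58, 4 of them upward, and the mean of all 6 differed by 1.11.

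Calcium cycling and excitability genes lay on both sides of 0. Of the 28, Atp2a2 among them, 15 were higher and 13 lower, and the median was 0.09. Above all controls lay 2 of them, beside 1.32% of all genes, and below all controls 1, beside 1.68%. Triadin (Trdn), a partner of the calcium release channel, was at 6.10, 5.87, 3.38, 6.56 and 7.69 against 3.42 to 3.68 (difference 2.41, adjusted p = 0.502), but untransfected fibroblasts were higher still, at 8.31 ± 1.99 (SD, n = 3). The release channel Ryr2 differed by -0.42, with its other probe set at 0.77, and phospholamban (Pln), which restrains the pump, by 0.38.

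Cardiac transcription factors differed in both directions. Of 21, 11 were higher and 10 lower, with a median of 0.05. Mef2c, which switches on muscle genes, was at 6.49, 10.77, 9.66, 9.86 and 8.36 against 5.20, 7.43 and 8.85 (difference 1.87, interval 0.09 to 3.65, adjusted p = 0.730), and untransfected fibroblasts were at 8.89 to 9.76. The groups overlapped through fibroTIPeR 1, and 3 of its 4 other probe sets had the same sign. Tbx5 differed by 1.30, Nkx2-5 by -0.12, Hand2 by -0.34 and Gata4 by -1.04, none past the test. The other probe sets of Tbx5 (-0.74) and Gata4 (1.01) had the opposite sign. Energy metabolism, on which the beating heart draws, had 11 higher and 17 lower of 28, with a median of -0.23. Its smallest p was that of Pdk4, which spares glucose by slowing pyruvate dehydrogenase, with a difference of 1.70 (adjusted p = 0.740) and no overlap with the controls. Genes of the natriuretic peptides and of the intercalated disc, the junction between heart cells, had 15 of 20 above 0 and a median of 0.54. Their leading member was the junction protein Tjp1 (2.20, adjusted p = 0.722), while the natriuretic peptide Nppa differed by 0.41. Per cell, 30.0 to 50% of this list lay above all controls, beside 20.3 to 30.0% of all genes. Below all controls lay 20 to 30%, beside 23.2 to 32.3%. Over all 5 cells, 0 genes of the list lay above every control and 1 below, beside 1.32% and 1.68% of all genes. The list median was 5.30 to 6.13 in fibroTIPeR and 4.83 to 5.77 in fibroControl cells. It was 5.45 to 6.27 in cardiomyocytes and 5.44 to 6.01 in untransfected fibroblasts, so it did not set donor and host apart. Of 24 skeletal muscle genes 9 were higher, with a median of -0.12.

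**Figure D2:**
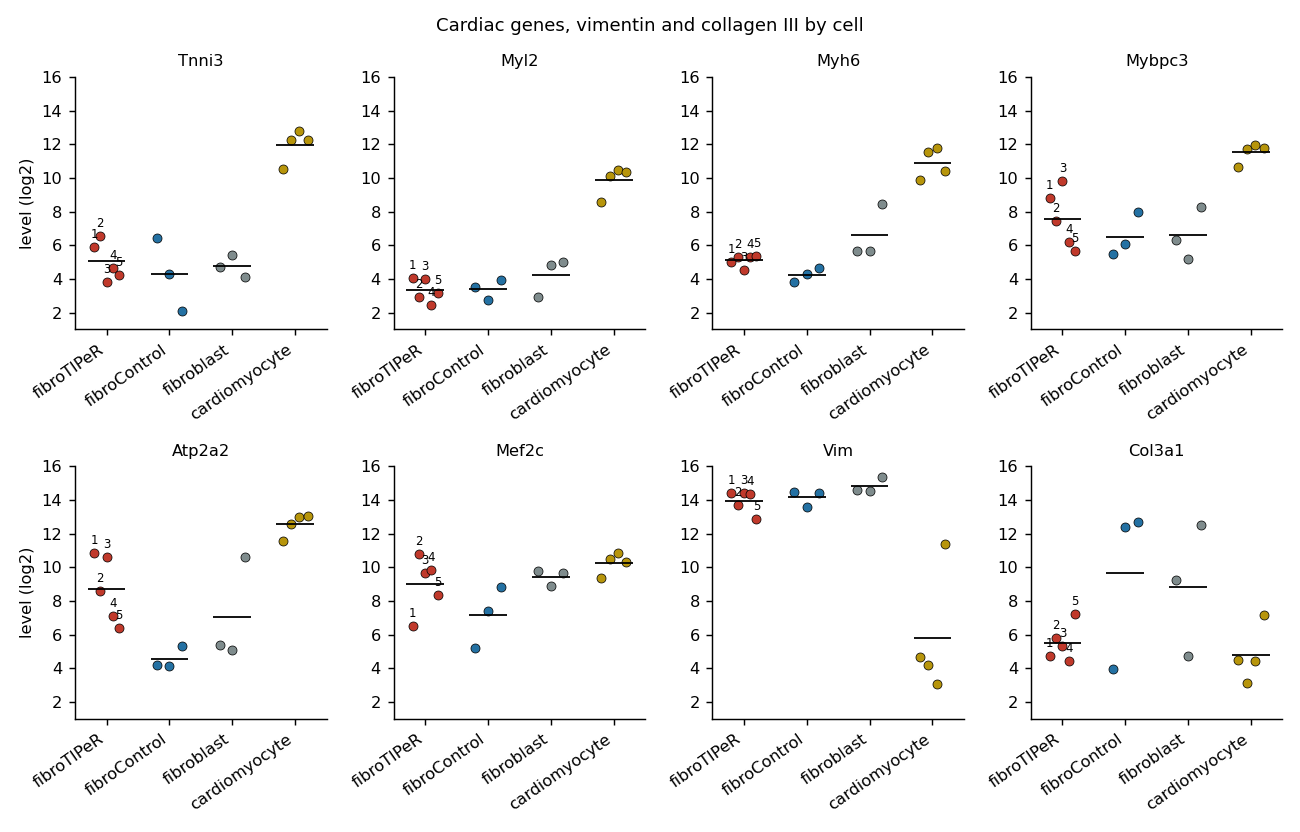
Levels (log2) of 6 cardiac genes, vimentin and type III collagen, with 1 point per cell, the fibroTIPeR cells numbered, and the group mean as a line. Tnni3 and Myl2 stay at the fibroblast level in all 5 fibroTIPeR cells, Atp2a2 lies above the controls in all 5 and reaches 10.85, and Col3a1 splits the controls into 3.95 and 12.43 to 12.68.

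The same question was put to the genes that set the donor apart. In the fit of all cells, 41 genes (0.225%) passed between untransfected cardiomyocytes and fibroblasts, 18 higher in cardiomyocytes and 23 higher in fibroblasts. That comparison shares no cell with the transfer comparison. Of the 41, 15 differed in the donor's direction between fibroTIPeR and fibroControl cells, and none passed there. Among the 18 genes of cardiomyocytes, 6 were higher in fibroTIPeR cells, where 48.8% of all genes were, and the median was -0.06 with a range from -1.33 to 4.17. In cardiomyocytes they had a median level of 9.88, against 4.58 in untransfected fibroblasts, 4.63 in fibroControl and 4.85 in fibroTIPeR cells. The lipid droplet protein Plin5, with 9.87 in cardiomyocytes, was at 4.11 ± 0.63 (SD, n = 5) against 4.63 ± 0.32 (n = 3). The muscle protein Myoz2, which lies at the Z-disc, and myoglobin (Mb), which stores oxygen, differed by 0.03 and -0.03. The only 2 of the 18 without overlap went opposite ways, Atp2a2 upward and Tmem182, a membrane protein of muscle, by -1.33.

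Among the 23 genes of fibroblasts, 9 were lower in fibroTIPeR cells, and the median was 0.08 with a range from -4.09 to 1.79. The lowest was Medag, a gene named for its part in the formation of fat cells. It was at 6.77, 6.89, 5.53, 3.65 and 6.33 in fibroTIPeR and 9.96, 9.56 and 10.26 in fibroControl cells, with 10.09 ± 1.99 (n = 3) in untransfected fibroblasts and 5.25 ± 1.26 (n = 4) in cardiomyocytes. By this probe set the fibroTIPeR cells lay below both fibroblast groups and near the cardiomyocytes, while its other probe set differed by 0.04. The difference of -4.09 (SE 0.92) did not pass (adjusted p = 0.139), nor did that from untransfected fibroblasts, -4.26 (adjusted p = 0.0813). Vimentin (Vim), the filament of mesenchymal cells, was at 14.43, 13.69, 14.43, 14.38 and 12.87 against 14.46, 13.60 and 14.44, beside 5.81 in cardiomyocytes. These values overlapped, and the interval of -2.44 to 2.02 leaves out the donor difference of -9.04. S100a4 differed by 0.67 and alpha-actinin 1 (Actn1), which bundles actin, by 1.04, both away from the donor. With the 100 genes of smallest p in each direction, 38 and 43 went in the donor's direction. Cell by cell, 2 to 4 of the 18 cardiomyocyte genes lay on the cardiomyocyte side of the midpoint between the donor and host means in fibroTIPeR cells and 2 to 5 in fibroControl cells. Of the 23 fibroblast genes, 4, 7, 3, 5 and 7 lay on the cardiomyocyte side in fibroTIPeR 1 to 5 and 4 in each fibroControl cell. For Atp2a2 the cells past the midpoint were fibroTIPeR 1 and 3, and for Mybpc3 fibroTIPeR 3. The counts also hold genes that were past it in every fibroControl cell. These were Laptm5 (midpoint 14.91) and Rassf1 (14.35) of the cardiomyocyte genes and Ncam2 and Zdhhc24 of the fibroblast genes.

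**Figure D3:**
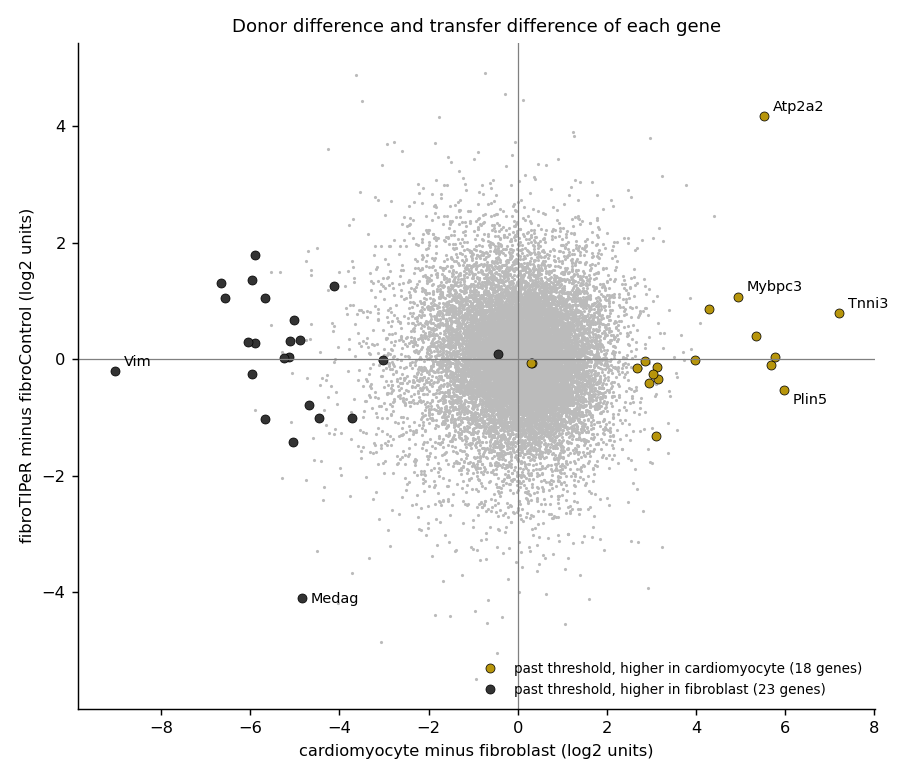
Difference between fibroTIPeR and fibroControl cells against the difference between untransfected cardiomyocytes and fibroblasts, both in log2 units, with 1 point per gene and the 41 donor genes as large points. Tnni3 and Plin5 lie far right and near 0 in height, and Atp2a2 (4.17) and Medag (-4.09) are the donor genes farthest from 0.

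The extracellular matrix had the lowest median difference of the 23 gene lists (-0.685), barely under that of the cytosolic ribosome (-0.682). The order of these lists changed under some alternatives, among them quantile normalization within each array set. Of 42 matrix genes, 30 were lower and 12 higher, and the median was -0.69, beside -0.02 over all genes. None passed. An unadjusted limma p under 0.05 was reached by 9 lower genes, beside 3.83% of all genes, and by no higher gene, beside 2.79%. Below all controls lay 2, beside 1.68% of all genes, and above all controls none, beside 1.32%. In each fibroTIPeR cell, 26.2 to 35.7% of the list lay below all controls, beside 23.2 to 32.3% of all genes, and 7.1 to 11.9% above them, beside 20.3 to 30.0%. The share below was thus near that of all genes, and the share above was smaller. Type VI collagen supplied both genes without overlap. Its alpha-3 chain (Col6a3) was at 3.54, 5.65, 3.87, 4.36 and 7.24 against 9.45, 7.49 and 11.06 (difference -4.40, SE 0.85, adjusted p = 0.0840). Its alpha-2 chain (Col6a2) was at 7.02, 7.44, 5.49, 6.15 and 4.38 against 9.02, 9.47 and 9.42 (difference -3.20, SE 0.90, adjusted p = 0.346). FibroTIPeR 5 came within 1 unit of a control for Col6a3 and was the lowest cell for Col6a2.

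Fibrillar collagens differed among the controls as much as between the groups. Col3a1 was at 4.71, 5.82, 5.32, 4.45 and 7.24 in fibroTIPeR and 3.95, 12.43 and 12.68 in fibroControl cells, so fibroControl 1 lay under every fibroTIPeR cell and the other controls far above (difference -4.18, interval -7.33 to -1.03, adjusted p = 0.562). Untransfected fibroblasts were as divided, with 9.24, 4.73 and 12.53. Col1a1 differed by -2.48 (adjusted p = 0.621) and Col1a2 by -1.74. Over the whole list, the median level was 5.77 in fibroControl 1 but 9.37 and 9.33 in fibroControl 2 and 3, while the fibroTIPeR cells lay between 6.14 and 7.0 and fibroblasts at 6.43, 6.13 and 8.51. The median difference was -0.91 with the 18S level as a covariate, -0.87 with fibroTIPeR 1 to 3 alone and -1.01 with fibroTIPeR 4 and 5 alone. It was -1.45 without fibroControl 1 and -1.12 without fibroTIPeR 1. In the other direction, it shrank to -0.56 without fibroControl 2 and -0.51 without fibroControl 3, the controls with the high list medians.

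Enzymes and signals that act on the matrix leaned the same way. Of 26 proteases and their inhibitors, 16 were lower, with a median of -0.22. The gelatinase Mmp2 was at 7.86, 3.98, 8.87, 4.92 and 6.87 against 8.06, 11.30 and 13.38 (difference -4.41, SE 1.05, adjusted p = 0.212), with fibroTIPeR 3 above fibroControl 1. It was at 5.05 to 5.72 in untransfected fibroblasts, under most of the transfected cells. The protease inhibitor cystatin C (Cst3) was at 5.55 ± 1.40 (SD, n = 5) against 8.25 ± 1.36 (n = 3). Of 40 growth factors and receptors of tissue repair, 26 were lower, with a median of -0.31, and transforming growth factor beta 2 (Tgfb2) was at 2.18, 4.49, 6.16, 5.33 and 2.32 against 5.27, 8.69 and 7.52. Surface and identity genes of fibroblasts were nearly even (18 of 29 lower, median -0.09). The hyaluronan receptor Cd44 was at 12.02 and 11.90 in fibroTIPeR 1 and 3 and at 3.83 in fibroTIPeR 2, against 5.58 to 7.64 in the controls.

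**Figure D4:**
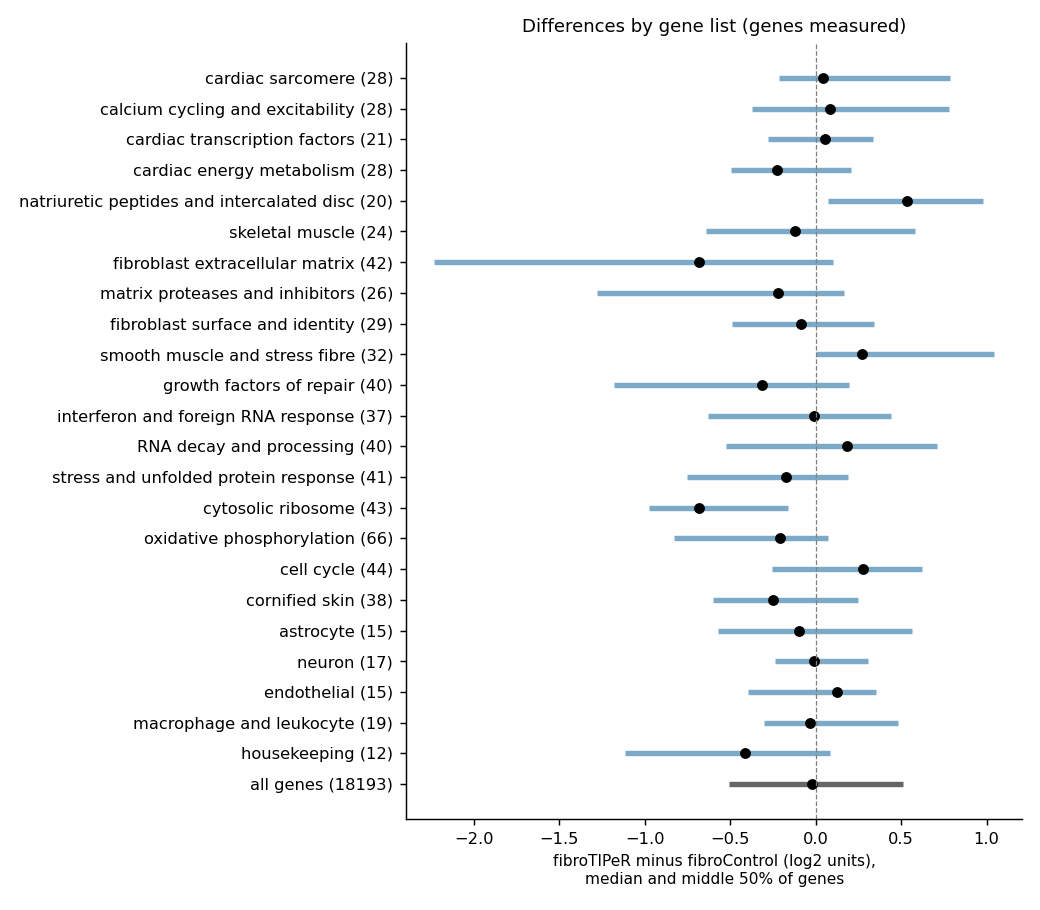
Median (point) and middle 50% (bar) of the differences between fibroTIPeR and fibroControl cells, in log2 units, for each gene list and for all genes, with the number of genes measured in brackets. The extracellular matrix (-0.69) and the cytosolic ribosome (-0.68) have the lowest medians and the list of natriuretic peptides and intercalated disc the highest (0.54).

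Ribosomal protein genes separated the fibroTIPeR cells from one another more than from the controls. These 43 genes encode the proteins of the cytosolic ribosome. Their median difference was -0.68, with 34 lower and 9 higher, none passed, and none had groups without overlap. The median level of the list was 12.12, 9.34, 11.53, 8.05 and 7.97 in fibroTIPeR 1 to 5 and 10.31, 10.03 and 10.01 in fibroControl 1 to 3. FibroTIPeR 1 and 3 had 76.7% and 60.5% of the genes above all controls, beside 24.8% and 20.3% of all genes, and 2.3% and 9.3% below them, beside 32.3% and 27.4%. FibroTIPeR 2, 4 and 5 had 72.1%, 81.4% and 76.7% below all controls, beside 23.2%, 25.1% and 27.1% of all genes, and 7.0%, 7.0% and 9.3% above, beside 29.8%, 28.6% and 30.0%. The single negative median therefore joined cells that lay on both sides of the controls, and it was 0.35 with fibroTIPeR 1 to 3 alone and 0.12 with the 18S level as a covariate. The short ribosomal gene Rps27 shows the pattern in part, with 9.56, 6.43, 8.78, 6.29 and 6.28 against 8.71, 9.19 and 9.23. For this gene fibroTIPeR 3 lay among the controls.

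Oxidative phosphorylation, the mitochondrial production of ATP, showed the same order. The median level of its 66 genes was 10.08, 7.18, 9.38, 6.92 and 6.53 in fibroTIPeR and 8.42, 8.66 and 8.18 in fibroControl cells, and the median difference was -0.21. Fitted with the 18S level it was 0.06. Cardiomyocytes were at 7.45 to 9.10 and untransfected fibroblasts at 6.61 to 7.31, so fibroTIPeR 1 and 3 were above all cardiomyocytes. The synthase subunit Atp5j2 was at 10.92, 6.28, 9.26, 4.60 and 4.89 against 10.35, 9.54 and 9.13. Its 2 other probe sets differed by -2.09 and 1.41. The 12 housekeeping genes followed as well, at 10.88, 7.51, 10.25, 7.62 and 6.87 against 10.26, 9.86 and 9.98.

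Genes of smooth muscle and stress fibres, the actin bundles by which fibroblasts pull on their surroundings, were high in fibroTIPeR 1 to 3 and low in fibroTIPeR 4 and 5. Their median level was 10.88, 8.95, 9.49, 6.27 and 6.62 against 7.62, 8.19 and 7.89, and 24 of 32 had a positive difference (median 0.27). Palladin (Palld), which crosslinks actin, was at 8.47, 8.80, 9.14, 5.54 and 5.52 against 5.59, 4.89 and 3.82 (difference 2.73, adjusted p = 0.585). Of its 3 other probe sets, 2 had the opposite sign. Caldesmon (Cald1), which regulates actin and myosin, was at 12.89, 12.05, 12.56, 11.29 and 10.71 against 10.87, 10.57 and 10.18. Among the fibroTIPeR cells, the 3 with the higher levels were those with a high 18S level, whereas the fibroControl cells had a high 18S level and list medians between those of the 2 sets. The median difference was 0.75 with the 18S level as a covariate, and 1.0 with fibroTIPeR 1 to 3 alone against -0.05 with fibroTIPeR 4 and 5 alone.

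Genes of the response to foreign RNA did not differ as a group. Of 37, 18 were higher and 19 lower, and the median was -0.01. Above all controls lay 1, beside 1.32% of all genes, and below them 1, beside 1.68%. The sensor of foreign RNA Ddx58 (RIG-I) was at 10.74, 11.70, 11.38, 11.80 and 11.36 against 9.74, 10.51 and 11.10 (difference 0.95, adjusted p = 0.574). The interferon-induced Ifit1 was at 3.37 to 4.43 in fibroTIPeR cells and at 4.39, 8.16 and 5.12 in fibroControl cells, with fibroControl 2 the highest (difference -2.01, adjusted p = 0.435). Both groups had received RNA, so this comparison does not show the response to transfection itself. RNA decay and processing had 24 of 40 higher and a median of 0.18, with the exonuclease Dis3 at 2.22 and the decay factor Upf2 at -1.94, lower without overlap.

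Stress genes were lower in 25 of 41, with a median of -0.17. The heat shock protein Hspa1a was at 5.67, 10.16, 7.19, 7.49 and 5.07 against 12.73, 10.41 and 8.77 (difference -3.52, SE 0.96, adjusted p = 0.337), and fibroTIPeR 2 overlapped the controls. The immediate early factor Fos was at 4.0 to 5.32 against 5.04, 7.40 and 12.21, so its difference of -3.34 rested mostly on fibroControl 3. Cell cycle genes had 28 of 44 higher, with a median of 0.28. Below all controls lay 3 of them, beside 1.68% of all genes, and above all controls none, beside 1.32%. The mitotic kinase Plk1 was at 4.50 to 5.76 against 9.85, 6.21 and 6.84 (difference -2.65, adjusted p = 0.455). Mcm2, part of the helicase that opens replication origins, was at 5.58 to 6.69 against 3.82, 3.81 and 5.59, while its other probe set differed by -0.33.

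Of the 38 genes of the cornified skin list, which includes Cdsn, 23 were lower, with a median of -0.25. Below all controls lay 3 of them, beside 1.68% of all genes. These were Cdsn itself, hornerin (Hrnr) at -1.73 (adjusted p = 0.346) and the crosslinking enzyme Tgm3 at -0.81, none but Cdsn past the test. Above all controls lay 1 gene of the list, beside 1.32% of all genes. Sprr2h, described above, is a cornified skin gene outside this list. The keratinocyte filament gene Krt14 differed by 0.82, and Krt5 was at 12.47 to 13.06 in every one of the 8 cells. Its probe set was as high in cardiomyocytes (12.98), so it does not mark a cell type on these arrays. The 4 keratinocyte markers summed to 33.2 to 39.0 in fibroTIPeR and 34.5 to 36.1 in fibroControl cells. Markers of other cells the cultures could hold also overlapped, with mean levels of 5.47 to 7.47 against 5.23 to 6.91 for the 4 endothelial and 7.09 to 8.17 against 7.45 to 7.79 for the 4 neuronal genes. The 4 macrophage markers had mean levels of 5.81 to 6.46 against 5.06 to 5.78, without overlap. They were at 6.12 to 6.85 in untransfected fibroblasts and 6.10 to 6.94 in cardiomyocytes, so the fibroControl cells were the low ones. Among these markers, the leukocyte gene Ptprc was at 2.76 to 4.73 against 3.22 to 5.12. Csf1r differed by 1.22, but its 2 other probe sets differed by -2.14 and -0.45. Whether this bears on any gene above was not tested.

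More genes separated from the controls in fibroTIPeR 4 and 5, the cells whose 18S level was that of untransfected cells. When they alone were set against the fibroControl cells, 161 genes passed (0.885%), 91 lower (0.500%) and 70 higher (0.385%), whereas with fibroTIPeR 1 to 3 alone none did and 1244 genes (6.84%) had an unadjusted p under 0.05. The 161 held none of the 28 sarcomere genes and 1 of the 42 matrix genes, P4hb, which folds collagen. They also held 3 of 41 stress genes (Hspa1a, Hspe1 and Sqstm1) and 3 of 66 oxidative phosphorylation genes (Atp5j2, Ndufs3 and Ndufv3). Of 43 ribosomal genes they held 2 (Rps14 and Rps26), and of 38 cornified skin genes 2 (Cdsn and Lce3b). The gelatinase Mmp2, Cnn2, Tgfbr3 and Eef1a1 were each the only member of their list. At a share of 0.885% under 1 gene would be found in a list of any of these sizes. The counts of 2 and 3 were above that share, but they were not tested and nothing is read from them. The genes below are those with the smallest p in that comparison, and since the split was drawn from the data their levels are a description. Pglyrp2, an enzyme that cleaves bacterial cell wall, was at 9.08, 13.32 and 10.13 in fibroTIPeR 1 to 3, 3.56 and 4.38 in fibroTIPeR 4 and 5, and 12.29, 12.97 and 12.67 in fibroControl cells. Untransfected fibroblasts were at 2.18 to 4.30, beside fibroTIPeR 4 and 5. Angiogenin (Ang), a secreted ribonuclease, was at 10.39, 12.63, 8.19, 2.27 and 5.52 against 12.02, 11.16 and 10.20, and untransfected fibroblasts at 3.26 to 3.84. Gastric lipase (Lipf) was at 10.71, 13.16, 8.42, 4.38 and 5.83 against 11.04 to 12.27. In the other direction the splicing factor Snrnp27 was at 7.68, 10.29, 8.76, 11.37 and 11.29 against 7.86, 7.79 and 8.48, with 10.36 to 11.06 in untransfected fibroblasts.

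The 161 genes were chosen on the fibroControl values and on fibroTIPeR 4 and 5, so the counts that follow describe them and test nothing. Of the 91 lower genes, 71 had all of fibroTIPeR 1 to 3 above both fibroTIPeR 4 and 5, and of the 70 higher genes 60 had them all below. The median level of the 91 was 5.0 in fibroTIPeR 4 and 5, 8.68 in fibroTIPeR 1 to 3, 9.93 in fibroControl cells, 5.31 in untransfected fibroblasts and 4.78 in cardiomyocytes. That of the 70 was 10.86, 8.03, 7.25, 10.18 and 10.40 in the same order. The fibroblast mean was nearer to fibroTIPeR 4 and 5 than to the controls in 86 of 91 and 69 of 70 genes, and the cardiomyocyte mean in 85 and 64. Cdsn did not follow this split, since it was at 3.22 to 4.88 in fibroTIPeR 1 to 3 and at 4.45 and 2.76 in fibroTIPeR 4 and 5.

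**Figure D5:**
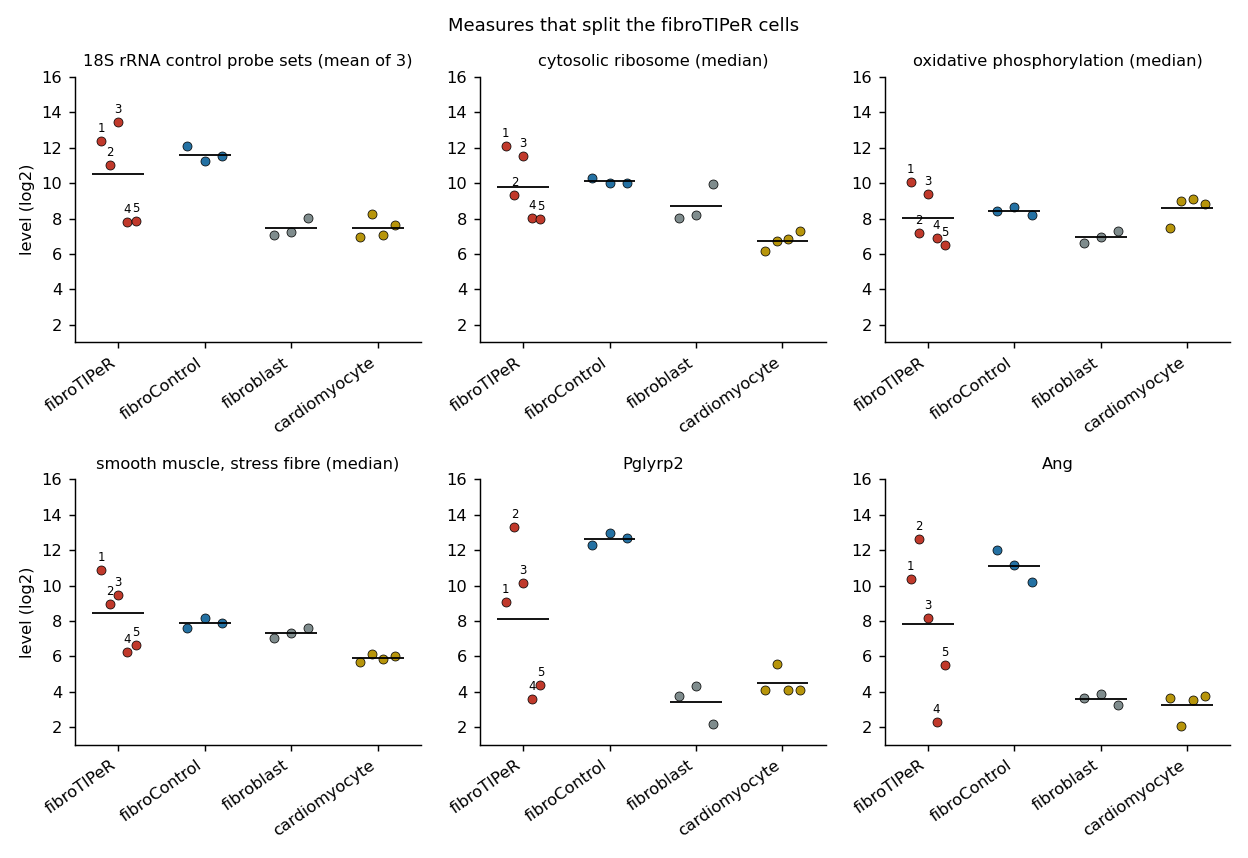
Levels (log2) of 18S ribosomal RNA, of 3 gene lists (median of the genes) and of 2 genes, with 1 point per cell, the fibroTIPeR cells numbered, and the group mean as a line. FibroTIPeR 4 and 5 lie with the untransfected cells for 18S (7.80 and 7.88) and near them for Pglyrp2 (3.56 and 4.38), Ang is at 2.27 and 5.52 in them, and fibroTIPeR 1 and 3 are the highest fibroTIPeR cells for the ribosome and for oxidative phosphorylation.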

How the data were processed

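The authors deposited log2 expression values for 45101 Affymetrix mouse probe sets, the unit being judged from their range; they come with a summarization, normalization and genome build not given in the sources used here. Column medians differed by up to 1.29, so the 23 columns were quantile normalized together. Of the probe sets, 34945 named 1 gene, 932 named more, 64 were controls and the annotation did not list 9160. For each of 18193 genes the probe set with the highest mean was used (9010 genes had more than 1), which can differ from the others. Groups came from the labels. limma (version 3.58.1, R 4.3.3) was fitted with a mean for each of 6 groups over all 23 cells, with moderated variances that follow the level, two-sided tests, Benjamini-Hochberg adjustment over all genes and a threshold of 0.05; all adjusted p-values are from limma. The script was tested on simulated data. Library measures were compared by exact permutation tests.

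Genes named are those past the threshold, the 12 higher and 12 lower with the smallest p among genes without overlap, 2 per list, fixed markers, the donor genes and the 12 with the smallest p for fibroTIPeR 4 and 5; a few donor genes beyond the 6 per direction are given as examples. The comparison, its members, the 23 lists and the alternatives were chosen with earlier results of these data known, so no list is independent evidence. Promoter sequences are from RefSeq (GRCm38.p6). Alternatives changed the normalization, the choice of probe sets, the variance model, the cells in the fit, the 18S covariate and the replicate block, and left out each cell in turn.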

Additional observations from a re-analysis of the deposited data

Results flagged for a closer look

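Single cells lay far from the rest of their group in 9 of 232 groups examined, by the gap to the nearest cell over the range of the group; chance gives about 1 in 20. Among fibroTIPeR cells, the muscle protein Csrp3 was at 5.84 in fibroTIPeR 1, the nearest other cell being at 4.49, and the glutamate transporter Slc1a3 at 7.32 in the same cell, the nearest other being at 10.30. Among cardiomyocytes, which define the donor genes, the calcium cycling genes Pln (8.06, nearest 10.26) and Ryr2 (6.44, nearest 8.02) each had 1 low cell, as did Rpl41 (7.17, nearest 9.31) and 4930483O08Rik (5.67, nearest 6.80). High single cardiomyocytes were seen for S100a10 (9.41, nearest 5.10), Hmgcs1 (6.48, nearest 4.09) and Laptm5, where 1 cell at 15.16 stood against 15.05 in the others. For Laptm5 the gap is small, and it was picked out because the other 3 cells are tied near the top of the scale.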

How the results depend on the processing

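The count of 1 gene past the threshold was the same with the deposited values, median centring, quantile normalization within each array set, every probe set, no _x_at or _s_at probe sets, robust variances, array weights and the 15 fibroblasts and cardiomyocytes. It was 0 with genes above the median level, where Cdsn is not tested, with the 8 cells alone and with fibroTIPeR 1 to 3 alone, 2 without the variance trend (Cdsn and Sprr2h), 3 with the mean of all probe sets (Cdsn, Sprr2h and Igfbp4), 3 with the 18S covariate (Cdsn, Prkar2a and Atp2a2) and 161 with fibroTIPeR 4 and 5 alone. Leaving out each cell gave 1 to 17 genes: 17 without fibroControl 1, 5 without fibroControl 2, 7 without fibroTIPeR 2, 4 without fibroTIPeR 3, 3 without fibroTIPeR 1 and 2 without fibroTIPeR 5. Without fibroControl 3 the gene was Tspan31 in place of Cdsn.

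Cdsn was lower under every alternative that tested it, but did not pass with the 8 cells alone (-4.00, adjusted p = 0.325), with fibroTIPeR 1 to 3 alone (-3.85, adjusted p = 0.0581) or without fibroControl 3; leaving out each cell gave -4.35 to -3.68. With the replicate block it was -3.85 (adjusted p = 0.938), the count was 0, with 734 genes at an unadjusted p under 0.05; that fit compares 3 pairs, since fibroTIPeR 4 and 5 have no partner. Replicate numbers did not pair the cells, since deviations of same-numbered cells correlated at 0.024, 0.0059 and 0.17. Donor genes in the donor's direction were 8 of 21 with the deposited values, 9 of 18 with the mean of all probe sets, 81 of 200 with 100 per direction, and 14 to 22 of 41 without each cell.

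The medians of the matrix, protease, repair, energy metabolism, intercalated disc, cell cycle, cornified skin and housekeeping lists kept their sign under all 22 alternatives; those of the sarcomere, calcium, transcription factor, ribosome, oxidative phosphorylation, stress fibre and remaining lists did not. The matrix median was -1.45 to -0.51 over these alternatives. Not all of them were separate checks of a sign. Dropping the variance trend, using robust variances or leaving out only cells outside the comparison could not change a difference. List medians and the Cdsn difference therefore stayed at their main values there. The replicate block repeated the medians of the fit that leaves out its unpaired cells.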
